A study of Mus musculus with 10 samples.

Results

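DNA methylation was examined at 8 genes of leukocytes and macrophages (Ptprc, Fcer1g, Spi1, Cd14, Csf1r, Itgam, Cd40 and Tnfsf4) in mouse spermatogonia. The members were taken by name, out of 21883 protein-coding genes, and every cytosine of a CpG that had at least 5 reads in both libraries and lay in the gene or within 2 kb of it was used. This gave 914 cytosines in 604 CpGs, of 6745376 cytosines in 4489220 CpGs in all. The cells were testicular germ cells of LT-11B6 mice, which carry the Id4-eGfp transgene on a C57BL/6 background, at postnatal day 6. Reporter-positive cells, in which EGFP follows Id4 and marks spermatogonia rich in stem cells, were stained for the tetraspanin TSPAN8 and sorted. The most strongly stained fraction is called TSPAN8-high and the most weakly stained TSPAN8-low. Both fractions carry the transgene, and no leukocyte sample was analysed here for comparison.

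Each fraction gave 1 library of reduced-representation bisulfite sequencing (RRBS), which reads methylation at cytosines near the ends of restriction fragments, from 300 ng of DNA pooled over 5 sorts. There were therefore no replicates: every test below sets one library against the other, and none measures the spread between animals or sorts. The 8 chromatin samples of the series were not analysed here. TSPAN8-high had 83658949 reads over all cytosines and TSPAN8-low 83773700. The totals of the member cytosines were 11710 and 11525, with a median of 10 per cytosine in each library. A level is the share of methylated reads, and a difference is TSPAN8-high minus TSPAN8-low in percentage points. All intervals are 95% intervals that cover counting error only. For pooled reads, intervals and p-values treat the counts of the same read at several CpGs as separate, and so may overstate precision. A level averages over all alleles and cells of a pool, so a partial level in every cell and a mixture of cells cannot be told apart. Of 16 germ cell genes 14 had a measured promoter, and all 14 lay below 20% in both libraries, as did 84.3% of all promoter windows, so these levels are no check on the purity of the sort.

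The 8 genes serve the white blood cell lineages. Spi1 encodes PU.1, a transcription factor required for macrophage and B cell development that binds purine-rich GAGGAA motifs. Ptprc encodes CD45, the tyrosine phosphatase on all nucleated blood cells, and Fcer1g the signalling chain shared by several Fc receptors. Cd14 encodes the co-receptor that hands bacterial lipopolysaccharide to TLR4, Csf1r the receptor through which macrophages receive their survival signal, and Itgam the CD11b integrin chain. Cd40 is a receptor and Tnfsf4 (OX40 ligand) a ligand of the tumour necrosis factor superfamilies, and both act in costimulation between antigen-presenting cells and T cells. CpG-dense promoters are unmethylated in most cell types, whether or not the gene is used, whereas CpG-poor promoters of tissue-specific genes are commonly methylated where the gene is silent.

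Promoter sequences from RefSeq (GRCm38.p6, the build of the mm10 coordinates used here) were matched for 3 of the 8 genes. They run from 250 bases before to 50 bases after the start, 300 bases in all, and are given 5′ to 3′ on the strand of the gene. The 2 that held measured cytosines are shown because they let the density of CpGs and the few measured positions be seen together. Capitals mark each CG with a level in the files. Ptprc lies at chr1:138175256-138175555 and Fcer1g at chr1:171234300-171234599, both on the minus strand.
Ptprc: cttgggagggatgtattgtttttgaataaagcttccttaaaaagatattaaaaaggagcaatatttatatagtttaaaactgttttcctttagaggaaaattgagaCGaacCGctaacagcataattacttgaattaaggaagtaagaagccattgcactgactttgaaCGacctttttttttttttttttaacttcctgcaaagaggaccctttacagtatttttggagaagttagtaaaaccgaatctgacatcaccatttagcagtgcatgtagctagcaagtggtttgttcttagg
Fcer1g: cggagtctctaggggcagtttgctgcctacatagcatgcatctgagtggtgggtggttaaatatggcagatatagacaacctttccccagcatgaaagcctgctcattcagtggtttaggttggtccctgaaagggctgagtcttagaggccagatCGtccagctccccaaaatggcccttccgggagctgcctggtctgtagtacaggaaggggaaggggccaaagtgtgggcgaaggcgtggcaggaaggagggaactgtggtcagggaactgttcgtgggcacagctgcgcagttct

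Both promoters were CpG-poor to average. The Ptprc sequence had 4 CGs and that of Fcer1g 7, against a median of 7 over 32851 RefSeq promoters, and 31.4% and 47.9% of promoters had fewer. The third, that of Itgam (chr7:128062390-128062689, plus strand), had 6 CGs and no measured cytosine. The letters GAGGAA, read on either strand, occurred in the Ptprc sequence shown, in the Itgam promoter and in 28.3% of all promoters in the table. TATAAA occurred on either strand in the Ptprc sequence alone among the 3 just described, and in 13.6% of all promoters. Ptprc has a second RefSeq start, with its promoter at chr1:138175077-138175376. That promoter had 2 CGs, no measured cytosine, and neither GAGGAA nor TATAAA. In Ptprc the first pair of capitals, at -144 and -139 from the start, was methylated on nearly every read. At -144 the plus strand showed 9 of 9 methylated reads in TSPAN8-high and 32 of 32 in TSPAN8-low. At -81 the level was lower: 8 of 10 and 2 of 5 reads were methylated on the plus strand, and 9 of 13 and 8 of 10 on the minus strand. The measured CG of Fcer1g, at -94, had 8 of 16 methylated reads (50%) in TSPAN8-high and 2 of 11 (18%) in TSPAN8-low. It was the one cytosine of that gene under 75% in either library. At an unadjusted p of 0.124 by Fisher's exact test and an adjusted p of 1 the libraries could not be separated there.

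Over their whole lengths the 8 genes fell into a methylated majority and 1 unmethylated gene. Levels are given for TSPAN8-high first and TSPAN8-low second. Pooled over all reads of the gene with its 2 kb flanks, Csf1r (94.0% and 95%) and Fcer1g (93.3% and 95.7%) stood highest, in opposite order in the libraries. They were followed by Itgam at 84.4% and 87.1% and Ptprc at 82.0% and 84.1%. Cd40 had 75.8% and 75.9%, and Spi1 73.9% and 73.0%. Tnfsf4 was intermediate, with 54.1% and 63.2%. Cd14 was nearly unmethylated, at 5.52% (49 of 888 reads, exact interval 4.11 to 7.23) and 5.49% (50 of 910 reads, 4.11 to 7.18). The median over 19760 genes with at least 5 CpGs came to 61.4% and 62.3%. Only 2.04% of those genes had a lower span level than Cd14, whereas 92.4% had a lower one than Csf1r and 92.6% a lower one than Fcer1g. Of the 914 member cytosines, 68.7% were above 80% in both libraries and 13.9% below 20% in both, against 63.7% and 18.2% of all cytosines.

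None of the 8 spans was called, where a call needed an adjusted p below 0.05 (Fisher's exact test, Benjamini-Hochberg over all genes) together with 10 points of difference. Over all genes 1.14% were called. By adjusted p alone Tnfsf4 passed (18.1% of all genes did). At an unadjusted p below 0.05, 3 of the 8 members passed (Ptprc, Itgam and Tnfsf4), against 30.1% of all genes. In pooled reads these 3 differed by -2.14, -2.73 and -9.17 points. Compared cytosine by cytosine, they differed by 0.327, -0.352 and -0.866 points.

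**Figure D1:**
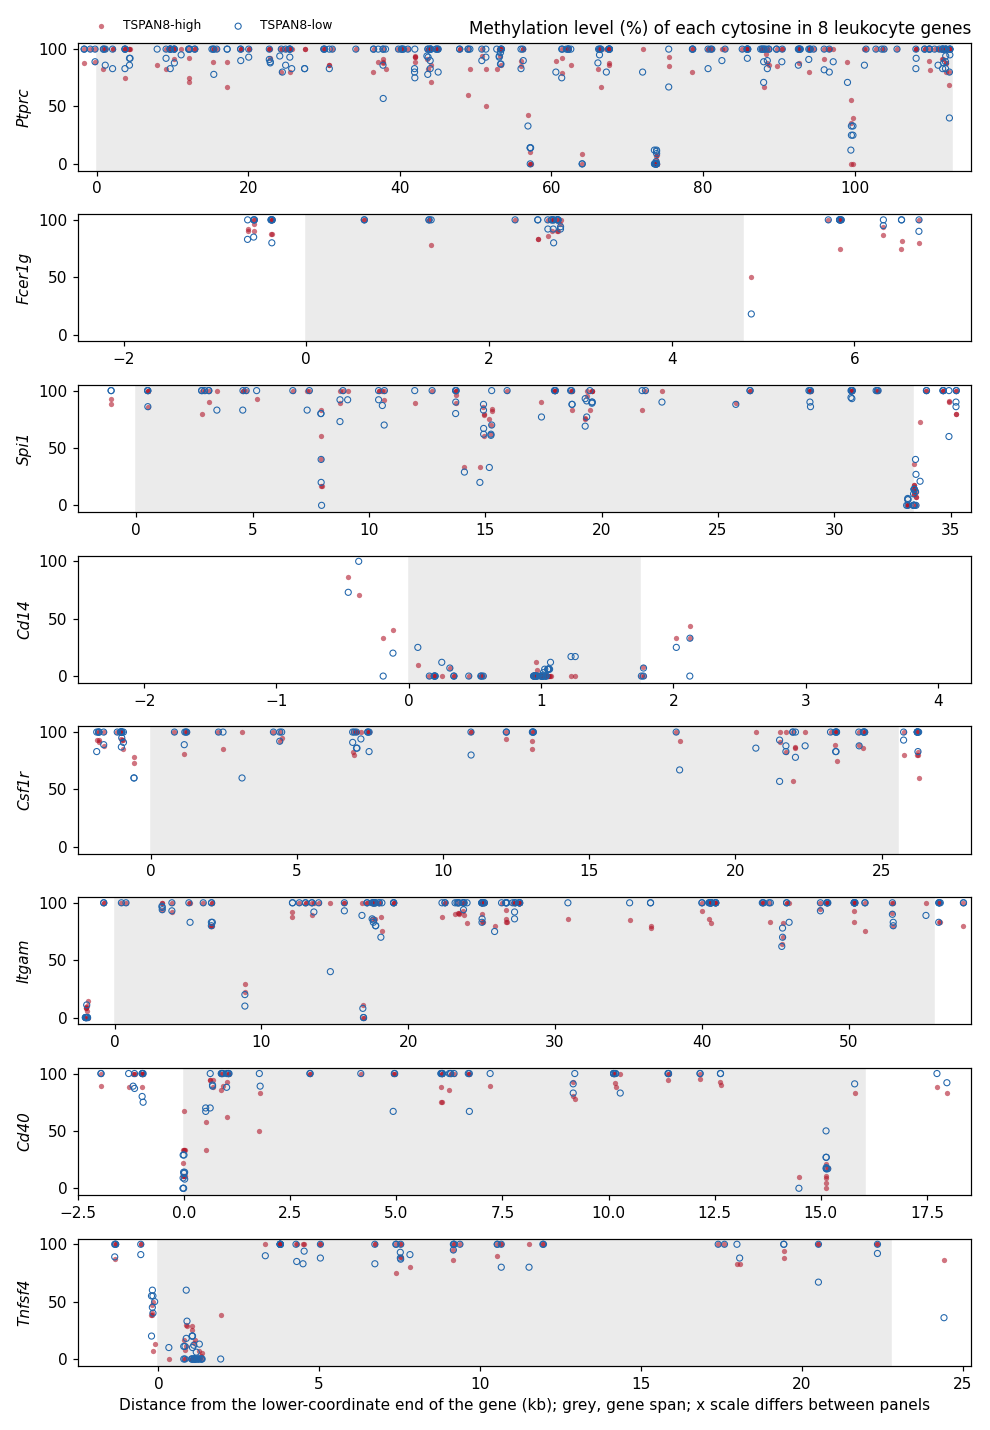
Methylation level (%, y axis) of each measured cytosine against its distance from the lower-coordinate end of the gene (kb, x axis, scaled per panel), with filled points for TSPAN8-high, open circles for TSPAN8-low and the gene span in grey. Most positions sit near 100% in both libraries, Cd14 sits near 0, and low stretches appear in Ptprc, Spi1, Itgam, Cd40 and Tnfsf4.

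The plot of levels along the genes shows that the lower averages came from low stretches. These were 50 to 681 bp long, except in Cd14 (2321 bp) and Tnfsf4 (2153 bp). Runs of at least 3 successive CpGs under 50%, a definition made after the levels had been seen and therefore given with no test, were found in 6 of the 8 genes. Fcer1g and Csf1r had none.

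Spi1, the transcription factor, had 1 such stretch, at chr2:91115486-91116064, across its higher-coordinate end. Its 11 CpGs were methylated on 46 of 339 reads (13.6%) in TSPAN8-high and 26 of 300 (8.67%) in TSPAN8-low, a difference of 4.90 points (interval -0.037 to 9.77). Outside it, the gene stood at 92.0% and 90.5%. The lower-coordinate end of Spi1, with 2 measured CpGs and too few for a test, had 23 of 24 methylated reads (95.8%) and 29 of 30 (96.7%). Which end holds the start is not given in the tables used here, so the low stretch is that of a gene end and may not be that of the promoter. The largest single difference lay at the outer edge of the stretch. The minus-strand cytosine at 91116064, 305 bp beyond the gene end, had 16 of 22 methylated reads (72.7%) in TSPAN8-high and 7 of 33 (21.2%) in TSPAN8-low. This cytosine had the lowest p of all member cytosines, 0.000234 unadjusted and 0.800 after adjustment, and did not pass. At 91115803, 44 bp beyond the end, 4 of 11 reads and 0 of 14 were methylated. At 91091133, inside the gene, the counts were 14 of 14 and 22 of 30.

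Ptprc, the pan-leukocyte phosphatase, spans 112898 bp, the longest of the set, and held 3 low stretches well inside the gene. The deepest, chr1:138136441-138136739, began 73582 bp above the lower-coordinate end, whereas the RefSeq start is at the higher one. Its 10 CpGs were methylated on 5 of 343 reads (1.46%) in TSPAN8-high and 8 of 293 (2.73%) in TSPAN8-low. A second, at 138119752-138120105, had 10.3% and 14.7% over 4 CpGs. The third, at 138162377-138162654, stood at 32.7% and 24.6% over 3 CpGs. Here the minus-strand cytosine at 138162378 had 10 of 18 and 2 of 16 methylated reads. By contrast, 138150924 had 8 of 12 and 22 of 22, and 138090271 had 38 of 38 and 19 of 23, so the leading cytosines of the gene did not share a direction. Outside the stretches the gene stood at 93.9% and 94.5%.

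Within 1 kb either side of its RefSeq start, Ptprc was methylated on 213 of 230 reads (92.6%) in TSPAN8-high and 275 of 287 (95.8%) in TSPAN8-low. The exact intervals, 88.4 to 95.6 and 92.8 to 97.8, overlap, and the adjusted p over all promoter windows was 0.458. Of all measured promoter windows 94.4% had a lower level than that of Ptprc.

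Fcer1g had too few measured CpGs near its start for a test, 2 in the 2-kb window, with 13 of 21 methylated reads in TSPAN8-high and 9 of 18 in TSPAN8-low. Its other end, with 7 CpGs, stood at 95% and 96.4%. In the gene and its flanks the cytosines with the lowest p values were 171236279 (8 of 10 and 28 of 28 methylated), 171235413 (6 of 8 and 16 of 16) and 171229194 (16 of 16 and 16 of 20). None reached an unadjusted p of 0.05. Of these, 171236279 and 171235413 lie beyond the higher-coordinate end, inside a neighbouring gene. Across the gene and its flanks 9 cytosines were higher in TSPAN8-high, 17 lower and 22 equal. The span difference (93.3% against 95.7%) had an adjusted p of 0.198. It was -1.46 points with cytosines in or near other genes left out.

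Itgam was fully methylated at the few positions measured within 1 kb of its RefSeq start, but the start itself was not measured. The nearest measured cytosine lay 459 bp inside the gene. All 62 reads in TSPAN8-high and all 46 in TSPAN8-low, over 3 CpGs, were methylated, which leaves room for an unmethylated share of up to 4.84% and 6.52%. The window held fewer than 5 CpGs and was not tested. Low methylation was measured instead at 128060642-128060789, about 2 kb before the start, where the 5 CpGs had 10 of 170 methylated reads (5.88%) and 2 of 99 (2.02%). That stretch reaches the 2 kb limit of the region examined, so its outer border was not determined, and the pseudogene Gm22809 lies 780 bp from Itgam on the same side. A second stretch of 3 CpGs inside the gene, at 128079547-128079596, had 3.57% and 2.56%. The cytosines with the lowest p were 128080265 (30 of 30 and 20 of 24), 128080269 (30 of 30 and 22 of 26), 4 bp away, and 128099146 (28 of 36 and 18 of 18). The span difference of -2.73 points had an adjusted p of 0.0632, and was -1.59 points with cytosines in or near other genes left out.

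Csf1r and Cd14, both on chromosome 18, stood at opposite extremes. Csf1r had no low stretch: 73 of its 87 cytosines were above 80% in both libraries and 0 were below 20% in both. Near its higher-coordinate end 106 of 117 reads (90.6%) were methylated in TSPAN8-high and 107 of 110 (97.3%) in TSPAN8-low. At that end 5 of 9 cytosines were lower in TSPAN8-high and 4 equal, but the difference of -6.67 points (interval -13.6 to -0.238) had an adjusted p of 0.298 and was not called. At the lower-coordinate end the levels were 84.0% and 84.8%. The lowest p values belonged to 61127536 (4 of 7 and 8 of 8), 61104556 (24 of 24 and 27 of 31) and 61104627 (25 of 27 and 42 of 42). All 9 cytosines of the higher-coordinate window lie inside the neighbouring gene Hmgxb3, which begins 138 bp beyond the higher-coordinate end, so the window describes that gene's span as much as the end of Csf1r. With cytosines in or near other genes left out, the Csf1r span differed by -0.114 points. The Hmgxb3 promoter window had 0.413% and 0.658%. The microRNA gene Mir6983 and the long non-coding RNA gene Gm52352 lie inside Csf1r and cover or adjoin 4 and 16 of its cytosines.

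The low stretch of Cd14 ran through the whole 1752-bp gene, over 2321 bp (36724870-36727190) and 36 of its 38 measured CpGs. It was methylated on 32 of 867 reads (3.69%) in TSPAN8-high and 33 of 890 (3.71%) in TSPAN8-low, a difference of -0.017 points with an interval of -1.82 to 1.80. Within 1 kb of the higher-coordinate end the levels were 3.38% and 4.27%, and within 1 kb of the lower one 7.56% and 4.82%. With 30 of 53 cytosines at equal levels, the largest single contrasts were 3 of 24 against 0 of 31 reads at 36726025, 5 of 15 against 0 of 8 at 36727189, and 2 of 6 against 0 of 8 at 36724871. None had an unadjusted p below 0.05.

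**Figure D2:**
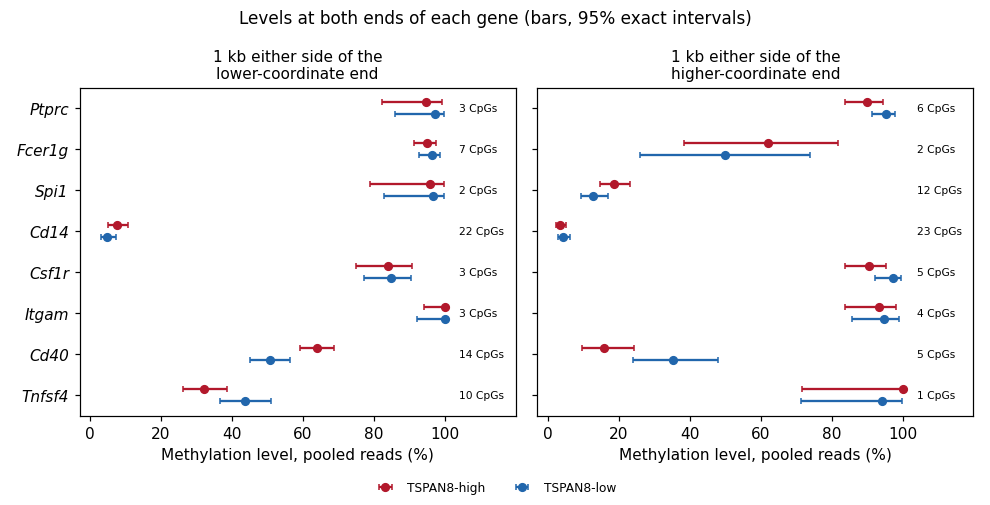
Methylation level (%, x axis) over all reads within 1 kb of the lower-coordinate (left) and higher-coordinate (right) end of each gene, with red points for TSPAN8-high, blue for TSPAN8-low and bars for 95% exact intervals. The intervals of the libraries are apart at the lower-coordinate end of Cd40 (64.1% against 50.8%), and nearly apart at its other end (15.9% against 35.3%).

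The ends of the genes were compared next, because promoters lie there. The RefSeq start was used for Ptprc, Fcer1g and Itgam. For the other 5 genes the tables used here give no strand, and the end with more listed CpGs was taken in its place, the lower-coordinate end for Cd40 and Tnfsf4 and the higher for Spi1, Cd14 and Csf1r. With at least 5 CpGs required, 6 of the 8 windows were tested, and 1 was called, that of Cd40. Over all genes 95 of 15803 windows were called (0.601%), 39 with the higher level in TSPAN8-high (0.247%) and 56 with the lower (0.354%). At an unadjusted p below 0.05, 3 of the 6 passed (Cd40, Tnfsf4 and Spi1), against 17% of all windows. All 3 rest on the CpG-richer end, which may not hold the start, and so does Csf1r. The other ends of Spi1 (95.8% and 96.7%) and Csf1r (84.0% and 84.8%) had too few CpGs for a test.

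Cd40 was methylated on 248 of 387 reads (64.1%, exact interval 59.1 to 68.9) in TSPAN8-high and 166 of 327 (50.8%, 45.2 to 56.3) in TSPAN8-low at its lower-coordinate end, over 14 CpGs. The difference was 13.3 points (interval 6.04 to 20.4), with p = 0.000351 and an adjusted p of 0.0177 by Fisher's exact test. Within the window the higher levels in TSPAN8-high were concentrated in 39 bp. Between 165055589 and 165055627, from 25 bp before to 13 bp after the gene end, 5 CpGs were methylated on 44 of 162 reads (27.2%) and 17 of 164 (10.4%). Each of the 10 cytosines there was higher in TSPAN8-high. At the remaining 9 CpGs of the window the levels were 90.7% and 91.4%, a difference of -0.744 points (interval -6.40 to 5.43). These highly methylated CpGs held 225 of the 387 reads in TSPAN8-high and 163 of the 327 in TSPAN8-low. The pooled 13.3 points therefore also carry an uneven split of reads, and compared cytosine by cytosine the window differed by 6.72 points.

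These 10 cytosines are not 10 independent measurements. At 8 of them the read number in TSPAN8-high was the same, 18. A read that crosses the stretch is counted at every CpG, and the p-value treats each count as separate. The cytosine that differed most was 165055612 on the minus strand, 2 bp before the gene end, with 12 of 18 methylated reads (66.7%) against 3 of 23 (13%), an unadjusted p of 0.000793 and an adjusted p of 1. On the plus strand alone the window had 64.6% and 59.9%, and on the minus strand 63.5% and 42.9%. With 1 CpG kept per 100 bp the difference was 13.4 points with an adjusted p of 0.273, and compared cytosine by cytosine it was 6.72 points with an adjusted p of 0.170, so the call did not hold under either. Inside the 39-bp stretch the difference compared cytosine by cytosine was 16.1 points, against 16.8 in pooled reads.

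**Figure D3:**
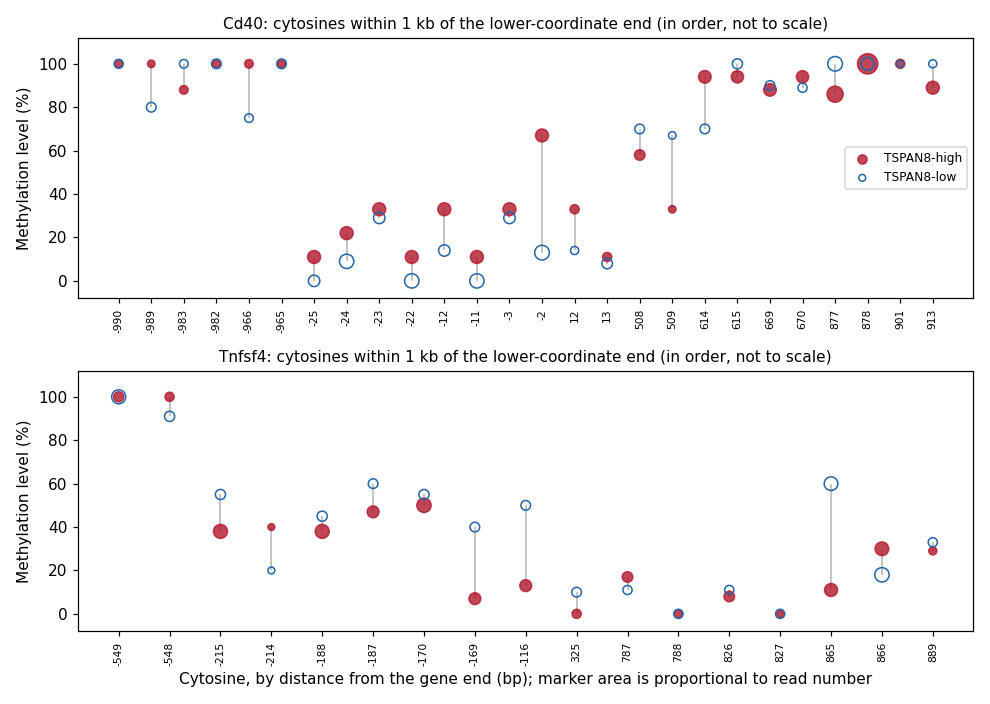
Methylation level (%, y axis) of each cytosine within 1 kb of the lower-coordinate end of Cd40 (top) and Tnfsf4 (bottom), in order of distance from the end (bp, x axis, not to scale). Filled points are TSPAN8-high, open circles TSPAN8-low, and marker area follows the read number; the 10 Cd40 cytosines from -25 to 13 are all higher in TSPAN8-high, and 10 of the 17 Tnfsf4 cytosines are lower.

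The other end of Cd40 leaned the other way. Within 1 kb of the higher-coordinate end 17 of 107 reads (15.9%) were methylated in TSPAN8-high and 24 of 68 (35.3%) in TSPAN8-low, and 7 of 8 cytosines were lower in TSPAN8-high. The difference of -19.4 points (interval -32.6 to -6.32) had an adjusted p of 0.101 when that end was tested in every gene, and was not called. Most of these CpGs belong to a second low stretch, 165070096-165070776, with 11.6% and 20%. The cytosine of the window outside that stretch, 165071410, had 5 of 6 and 10 of 11 methylated reads. The unweighted mean over the 8 cytosines differed by -12.4 points. Over the gene outside both stretches, which held 75.9% and 75.8% of the reads, the levels were 93.4% and 95.9%. That is a difference of -2.52 points (interval -4.71 to -0.286). A further pair, 165061665 (12 of 16 and 22 of 22) and 165057386 (3 of 6 and 9 of 9), had unadjusted p values below 0.05 and lower levels in TSPAN8-high. The pooled span of Cd40, which joins all these parts, differed by -0.050 points (interval -3.67 to 3.61).

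Tnfsf4 was the member with the largest span difference, -9.17 points (interval -13.2 to -5.14). Fisher's exact test gave p = 8.48e-06 and an adjusted p of 0.000244, but the size was under the 10-point minimum. Only 2.26% of genes had a larger span difference. Neither part of the gene taken alone showed a difference of that size. In the low stretch at its lower-coordinate end (chr1:161395223-161397375, 2153 bp, 22 CpGs) 67 of 553 reads (12.1%) and 66 of 469 (14.1%) were methylated, a difference of -1.96 points (interval -6.19 to 2.17). Outside it the levels were 96.2% and 94.9%, a difference of 1.27 points (interval -1.11 to 3.53). The stretch held 50.1% of the reads of the span in TSPAN8-high and 39.2% in TSPAN8-low. The unweighted mean over cytosines was 60.6% and 60.3%, and compared cytosine by cytosine the span differed by -0.866 points. In the same comparison the low stretch differed by -4.09 points and the rest of the span by 1.79.

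Near the lower-coordinate end itself Tnfsf4 was methylated on 72 of 224 reads (32.1%) in TSPAN8-high and 86 of 197 (43.7%) in TSPAN8-low, over 10 CpGs. The difference of -11.5 points (interval -20.6 to -2.24) had an adjusted p of 0.162 and was not called. It was called when at least 10 reads per cytosine were required, at -19.3 points over 6 CpGs with an adjusted p of 0.0440. The plus-strand cytosine at 161396303, 865 bp inside the gene, had 2 of 18 methylated reads (11.1%) against 12 of 20 (60%), an unadjusted p of 0.00252 and an adjusted p of 1. Its partner on the minus strand, 1 bp on, had 30% and 18%. Toward the other end, 161415958 had 22 of 22 and 8 of 12 methylated reads, and 161419862 had 6 of 7 and 4 of 11.

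**Figure D4:**
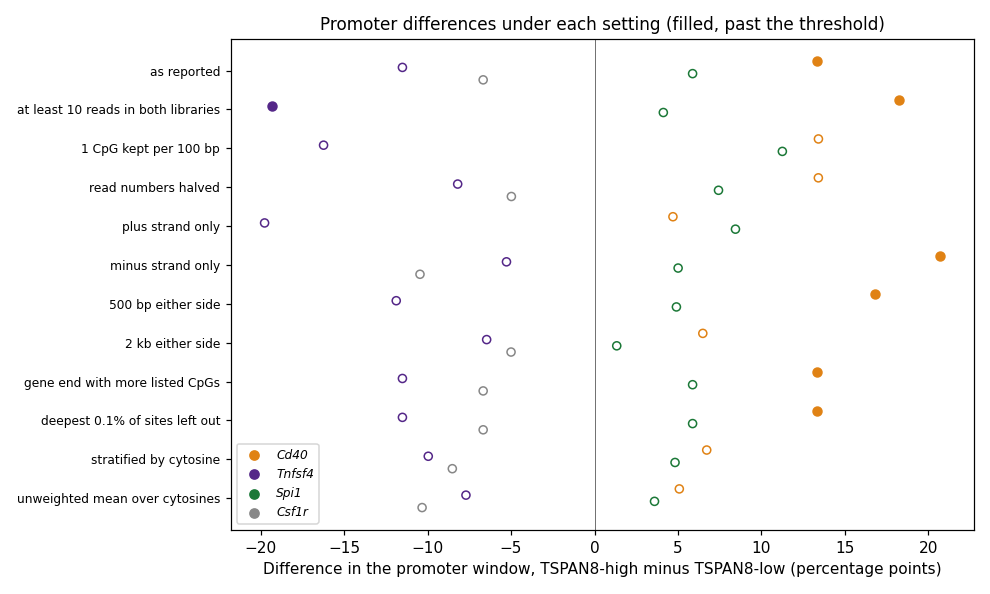
Difference in the promoter window (TSPAN8-high minus TSPAN8-low, percentage points, x axis) (the CpG-richer gene end) of Cd40, Tnfsf4, Spi1 and Csf1r under each processing setting (y axis), with filled points past the threshold and open points not past it or not tested. Cd40 stays above 0 but moves between 4.69 and 20.7 points, and Tnfsf4 stays below 0 between -5.28 and -19.8 points.

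In the plot of settings, the direction at Cd40, Tnfsf4, Spi1 and Csf1r was the same wherever a value could be computed, while the sizes moved several-fold. The settings reuse the same reads, so a shared direction among them is not repeated evidence.

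Finer units reuse the same reads, so a call in them is not further evidence. Of 87 tiles of 1 kb in the 8 genes, 1 was called, against 0.268% of 584828 tiles over the genome. It was 165055001-165056000 in Cd40, whose measured cytosines are those of the 39-bp stretch. Compared cytosine by cytosine that tile differed by 16.1 points with an adjusted p of 0.0803, and the call was lost. At an unadjusted p below 0.05, 6 of the 87 tiles passed (6.90%), against 8.6% of all tiles. Of the 914 member cytosines 0 were called, by Fisher's exact test, against 0.00111% of all. At an unadjusted p below 0.05 there were 20 (2.19%, against 1.46% of all cytosines), 11 higher and 9 lower in TSPAN8-high, and the lowest adjusted p was 0.800.

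Cd40 and Tnfsf4 had promoter levels that few genes share. Most windows were unmethylated, 84.3% below 20% in both libraries and 8.81% above 80% in both, with a median level of 1.69%. Cd40 (58.0% over both libraries) and Tnfsf4 (37.5%) fell between. Differences larger than that of Cd40 were found in 0.956% of all windows but in 22.9% of the 175 windows within 10 points of its level. For Tnfsf4 the shares were 1.38% of all windows and 18.4% of the 365 within 10 points of its level. Among 815 windows between 20% and 70%, 57 were called (6.99%) and the median absolute difference was 5.42 points, against 0.784 over all windows. The Ptprc window sat in the methylated group and that of Cd14 in the unmethylated one. For Spi1 the place depends on the end used, since its CpG-richer end was low and its other end high. Csf1r was high at both ends, and the measured cytosines of the window used lay beyond the gene, inside Hmgxb3.

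**Figure D5:**
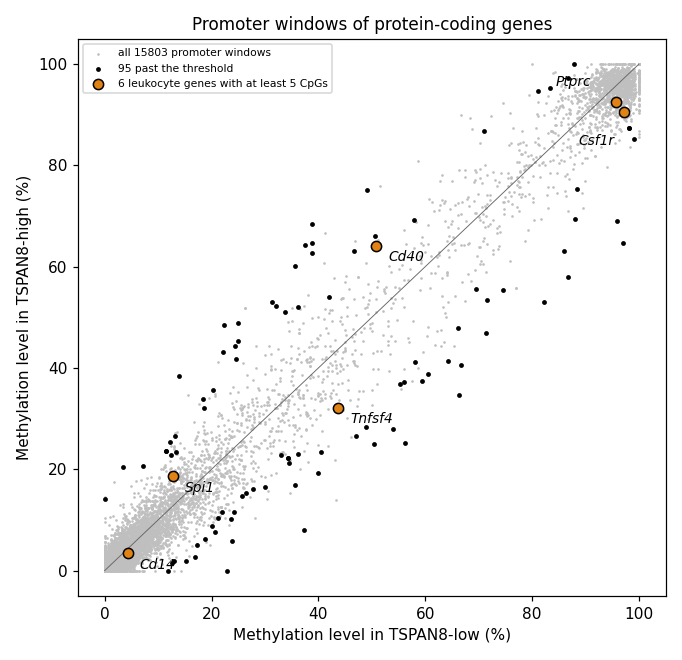
Methylation level (%) of each promoter window of a protein-coding gene in TSPAN8-low (x axis) and TSPAN8-high (y axis), with black points for the 95 windows past the threshold and orange points for the 6 leukocyte genes with at least 5 CpGs. For Cd40, Tnfsf4, Spi1, Csf1r and Cd14 the window is that of the CpG-richer gene end, which may not hold the start. The grey line marks equal levels; Cd40 lies above it, Tnfsf4 below it, and Ptprc, Csf1r, Cd14 and Spi1 lie near the corners where most windows are.

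Other leukocyte genes were listed in 5 groups, 80 genes in all, of which 49 had a measured promoter window. Of these 29 were below 20% in both libraries, 13 above 80% in both and 7 neither. The median difference was -0.507 points, against -0.008 over all windows. One was called higher in TSPAN8-high and 0 lower, by Fisher's exact test, where 0.601% of all windows were called. At an unadjusted p below 0.05 the counts were 3 and 2 of the 49, against 17% of all windows. The called gene was C1qb, a subunit of the complement recognition protein C1q that macrophages make, with 77 of 77 methylated reads (100%) in the first library and 101 of 115 (87.8%) in the second. Its difference of 12.2 points (interval 5.43 to 19.4) had an adjusted p of 0.0307, which became 0.123 when compared cytosine by cytosine.

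The groups are described by counts, to be read beside the 84.3% of all windows below 20% and the 8.81% above 80%, with no test between them. Their median number of CpGs per window ran from 8 in the lymphocyte group to 38 in the blood transcription and signalling group, against 31 over all windows. In the macrophage and myeloid group 12 of 25 genes were measured, 8 below 20% and 3 above 80% in both libraries. Its extremes were Ly86, whose product partners a relative of the Toll-like receptors, at 1.69% and 0% (0 of 103 reads, a count that leaves room for 2.91%), and the sialic acid receptor gene Siglec1, at 95.6% and 98.1%. Of 17 pan-leukocyte genes 9 were measured, with 3 below, 3 above and 3 between, from the actin-bundling gene Lcp1 (0.811% and 1.33%) to Arhgdib (96.8% and 100%). In the lymphocyte group 7 of 12 were measured, 2 below and 3 above, and the lowest was the T cell co-receptor gene Cd8a (0% of 122 reads and 3.10%). In the blood transcription and signalling group 11 of 13 measured genes were below 20% and 2 above 80%. They ran from Ikzf1, a lymphoid transcription factor gene, at 0.252% and 0.615%, to Runx1, a blood stem cell regulator, at 93.1% and 97.4% in the window used. In the costimulation group 8 of 12 were measured, 5 below and 2 above, from the ligand gene Icosl (0.165% and 0.324%) to Tnfrsf4, the receptor of the Tnfsf4 product (95.8% and 100%). No group had more than 1 called promoter.

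The genes of these groups whose levels lay nearest to those of Cd40, by the sum of the differences in the 2 libraries, were Cd3e (52.0% and 63.3%), Cd79a (54.2% and 65.6%) and Selplg (57.1% and 68.6%). Each was 24.7 or 24.8 points away, and in each TSPAN8-high had the lower level, unlike Cd40. Nearest to Tnfsf4 were Ptpn6 (41.3% and 43.2%, 9.66 points away), Cd37 (23.3% and 32.7%) and Tnfsf13b (47.4% and 34.5%). Likeness over 2 libraries describes a level and little else.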

How the data were processed

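RRBS was done on DNA cut with BfaI, MseI and MspI and read in pairs of 50 bp, per the labels. The authors' deposited table lists CpG cytosines, both strands apart. Its levels were deposited as a fraction of reads, rounded to 2 decimals, and its coverage as a deposited count of reads, 5 or more in both libraries. The deposited difference (high minus low level) was not used for any result. The deposited p-value was compared with Fisher's exact test on the rebuilt counts: both agree within a relative tolerance of 0.001 at 92.5% of member cytosines. Bowtie, SICER, mm9 and mm10 appear without a role in the submitters' processing notes; the aligner and methylation caller of the RRBS are not given in the sources used here. Positions matched cytosines of RefSeq GRCm38.p6 promoters once counted from 1, and mm10 was used. No other column of sample values was left unmapped (0).

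The number of methylated reads was rebuilt as coverage times level, rounded. Reads were pooled over gene spans with 2 kb flanks, over windows of 1 kb either side of the start (at least 5 CpGs) and over 1 kb tiles (at least 3 CpGs), and the libraries were set against each other with two-sided Fisher's exact tests and Benjamini-Hochberg adjustment over all features of a kind. A call took an adjusted p under 0.05 plus 10 percentage points of difference, or 20 for single cytosines. The start was the RefSeq start for 17491 genes and the end with more listed CpGs for 4392. Intervals of differences are Newcombe intervals, and those of levels are exact Clopper-Pearson intervals. An unmethylated or methylated count of 0 allows a share of 3 reads of the total. The sources used here name no molecular identifiers, so reads may repeat a molecule, and even read numbers occurred at 59.4% and 59.5% of cytosines, so halved counts were tried as well. The scripts (Python 3.11.15, scipy 1.17.1, numpy 2.4.6, pandas 2.3.3) were tested on simulated data.

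Members and gene lists were chosen with earlier results of these data known. All 8 members, their neighbours, the 3 cytosines of lowest p in each, called tiles, called list promoters, the extremes of each group and the 3 nearest genes to Cd40 and Tnfsf4 were named by rule, except that 1 neighbour and 1 group extreme are not reported here. The low stretches, the cytosine-by-cytosine comparison (a Mantel-Haenszel difference with a Cochran-Mantel-Haenszel test) and the cytosine beside 161396303 were chosen after seeing the data. Strand-specific, narrower and wider windows, higher read minimums, thinned CpGs, no minimum difference and leaving out the deepest sites or sites near other genes were further alternatives.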

Additional observations from a re-analysis of the deposited data

How the results depend on the processing

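With 1 library per group, no replicate could be left out. No paired analysis was possible because each group had a single library. The count of called member promoter windows, 1 as reported, was 2 with at least 10 reads (Cd40 and Tnfsf4) and 0 with at least 20 reads (1 member testable), with 1 CpG per 100 bp, with halved read numbers, with 2 kb either side and with the comparison cytosine by cytosine. Over all genes these gave 41, 8, 21, 0, 228 and 42 calls against 95, while windows of 500 bp gave 40 and no minimum difference 655. For spans, 0 as reported, the count was 1 (Tnfsf4) with at least 10 reads (-15.2 points) and with no minimum difference. Over all genes 226 spans were called as reported, 113 with 1 CpG per 100 bp, 102 with halved reads, 3581 with no minimum difference and 19 cytosine by cytosine. The 1 called tile became 0 with at least 20 reads, with 1 CpG per 100 bp, with halved reads and cytosine by cytosine, where 254, 149, 15 and 901 of all tiles were called against 1569. Member cytosines stayed at 0 under every alternative run, while 75 calls over all cytosines became 153 with at least 10 reads, 176 with 20, 0 with halved reads, 177 with no minimum and 155 with strands pooled.

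At Cd40 the promoter difference lost its call with halved reads (13.4 points, adjusted p 0.523), the plus strand (4.69, 0.831) and 2 kb windows (6.48, 0.213), beside the alternatives given with the result. The C1qb promoter lost its call with halved reads (12.5, 0.667) and on the minus strand (9.47, 0.170). The Tnfsf4 span was called on the minus strand (-11.5 points, adjusted p 0.00302). Directions turned at small differences. In the Cd14 promoter the difference was 0.021 points with at least 20 reads, 1.67 with 1 CpG per 100 bp, 0.604 with halved reads, 3.75 on the plus strand, 1.46 in 500 bp windows and 0.184 cytosine by cytosine. The Ptprc promoter gave 3.28 on the plus strand and 1.94 by the unweighted mean over cytosines, and its span 0.327 cytosine by cytosine. The Cd40 span gave 3.11 with at least 10 reads and 6.43 on the minus strand, and the Spi1 span -0.311 on the minus strand. The Itgam span gave 0.068 on the plus strand and -6.48 on the minus strand. On the minus strand Fisher's exact test gave Itgam an adjusted p of 0.000181, but the size was under the 10-point minimum. The Cd14 span gave -0.817 on the minus strand, -1.14 without flanks and -0.314 without the deepest 0.1% of sites. Without flanks the Spi1 span gave 4.27 points and the Cd40 span -4.94, larger than reported in the same direction, and neither was called. Apart from the loss of tested windows under higher read minimums, the cause of these shifts was not tested. At a median of 10 reads, single cytosines showed no difference that survived adjustment.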
